A study of Mus musculus with 9 samples.

Results

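The response of brown fat cells that is common to AM73 and AM80 was measured by setting the 6 arrays of cells treated with either compound against the 3 arrays of cells given DMSO alone. All 9 arrays of the series entered, 3 per group, and the AM73 mean and the AM80 mean were given equal weight. A gene was counted in the common response when limma's test of the pooled difference had a Benjamini-Hochberg adjusted p under 0.05 and all 6 compound arrays lay beyond all 3 DMSO arrays in the same direction. By that rule 56 of 30860 genes belonged to it, 51 higher and 5 lower. The AM80 arrays alone gave 4302 called genes and the AM73 arrays alone 37.

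The cells were mouse brown fat cells (C57BL/6) in culture, taken after full differentiation and exposed for 8 h to AM73 at 10 µM, to AM80 at 10 µM or to the solvent DMSO, which all groups share. The series title describes the compounds as activators of the product of Ppargc1a, the coactivator PGC-1α. RNA was read on Affymetrix whole-transcript arrays, and values are log2 expression after the authors' normalization. The labels call the 3 arrays of a group technical replicates and do not say whether they come from separate wells, so the p-values measure only the spread between these arrays.

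Brown fat cells burn fuel to make heat, through the uncoupling protein UCP1 in the mitochondrial inner membrane. Most cells also sense oxygen: prolyl hydroxylases of the EGLN family mark the hypoxia-inducible factors (HIF) for breakdown, and when these enzymes slow, HIF builds up and drives genes of glucose uptake, glycolysis, glycogen storage and collagen processing. The genes of the hydroxylases Egln1 and Egln3 are themselves HIF targets. The hydroxylases need oxygen, iron and 2-oxoglutarate, as do the Jumonji histone demethylases.

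The labelled cell type was set against its markers. Among 10 general fat cell markers the DMSO means ran from 7.03 to 12.6 on the log2 scale, with Fabp4 at 12.6 and Adipoq at 9.15, against a median of 2.82 over all genes. The 9 brown adipocyte markers were uneven in DMSO cells: Elovl3 stood at 8.44 and Cox7a1 at 7.55, whereas Ucp1 stood at 3.97 and Cox8b at 2.96. Markers of macrophages and endothelial cells had median DMSO levels of 2.52 and 2.49, near the median of all genes. Those of preadipocytes and fibroblasts had a median of 4.105 and a highest level of 10.58. Those of skeletal muscle had a median of 2.86 and a highest level of 5.69. Of the 10 fat cell, 12 preadipocyte, 11 macrophage, 9 endothelial and 10 skeletal muscle markers, 0 belonged to the common response, and of the 9 brown adipocyte markers 1 did (Ucp1). Among all genes 0.181% belonged to it, so 0 in lists of these sizes lies near that share. In RNA from a whole culture, fewer cells of a type and less RNA per cell cannot be told apart.

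Some features of the arrays moved with the groups. The median signal of the poly-A control RNAs, which are added to each sample, was highest on the AM80 arrays at 5.50 ± 0.33, followed by DMSO at 4.66 ± 0.16 and AM73 at 4.37 ± 0.30 (SD, n = 3 each). The median change of all genes, pooled compounds minus DMSO, was 0.0083 on the log2 scale, and scaling each array to these controls moved it to −0.27, so every change below is relative to the bulk of genes. With that scaling 745 genes were called in place of 62, of which 27 were higher and 718 lower. Of the 56 genes, 26 were still called, 24 still had all 6 compound arrays beyond the DMSO arrays, and 19 were still in the common response (adjusted p up to 0.563), with no change of sign. Array names end in the number 5 or 7, which no label explains: all 3 AM80 arrays, AM73 replicate 2 and DMSO replicate 2 carry 5 and the other 4 carry 7. On the 5 arrays with the number 5, where DMSO has 1 array, limma called 0 genes and 1995 had an unadjusted p under 0.05. With the number as a term of the fit, 10 genes were called, all higher and all among the 56. The part of the spike-in controls and of the array-name number in the results was not tested further.

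Of the 30860 genes, limma called 62 in the pooled comparison (0.201%), 51 higher (0.165%) and 11 lower (0.0356%). At an unadjusted p under 0.05 there were 3784. The 51 genes of the common response that rose make up all the higher calls, by 0.52 to 2.05 on the log2 scale with a median of 0.96 (1.44-fold to 4.14-fold, median 1.95-fold). The 5 genes that fell (0.0162% of genes) did so by 0.825 to 1.435. Without the p threshold, 790 genes (2.56%) had all 6 compound arrays beyond all 3 DMSO arrays, 494 higher (1.6%) and 296 lower (0.959%), and 734 of them were not called. Just inside the threshold lay Plekha2 (adjusted p = 0.0423), Tfpt (0.0427) and Gm15792 (0.0495). Just outside it lay Acer2 (0.0513), Dgkq (0.0536) and Selenbp1 (0.0537), of which Selenbp1, on the HIF list below, had a change of 1.22.

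The other 6 called genes, all lower, had compound arrays that overlapped those of DMSO. They were Trp53inp1, Chordc1, Sowahc, Trim24, Pank3 and Zxdb, named after their values were seen. Trp53inp1, a p53-induced autophagy gene, had levels of 7.99, 7.57 and 7.12 on DMSO replicates 1 to 3, of 7.59, 7.47 and 7.63 with AM73, and of 4.35, 4.57 and 5.25 with AM80. Its pooled fall of 1.42 was thus the mean of a change of 0.0033 with AM73 and one of −2.84 with AM80. For the 6 genes, AM73 alone changed Zxdb most, by −0.41, and AM80 changed each by −1.14 or more.

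The 9 arrays did not weigh equally on the calls. Without DMSO replicate 3 the common response held 194 genes, 119 higher and 75 lower, and without DMSO replicate 2 it held 1, Sema3g. Without DMSO replicate 1 it held 9 genes. Leaving out AM73 replicate 1, 2 or 3 gave 22, 22 and 27, and leaving out AM80 replicate 1, 2 or 3 gave 48, 21 and 76. Among the 51 genes that rose, DMSO replicate 3 was the highest DMSO array for 38, whereas over all genes it was the highest for 36.1%. Sema3g was the only gene whose call held in each of the 9 fits with 1 array left out, 7 genes lost it only without DMSO replicate 2 (Egln3, Ffar4, Fosl1, P4ha1, P4ha2, Slc16a3 and Slc25a34), and 10 lost it only without DMSO replicate 1 or 2.

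**Figure D1:**
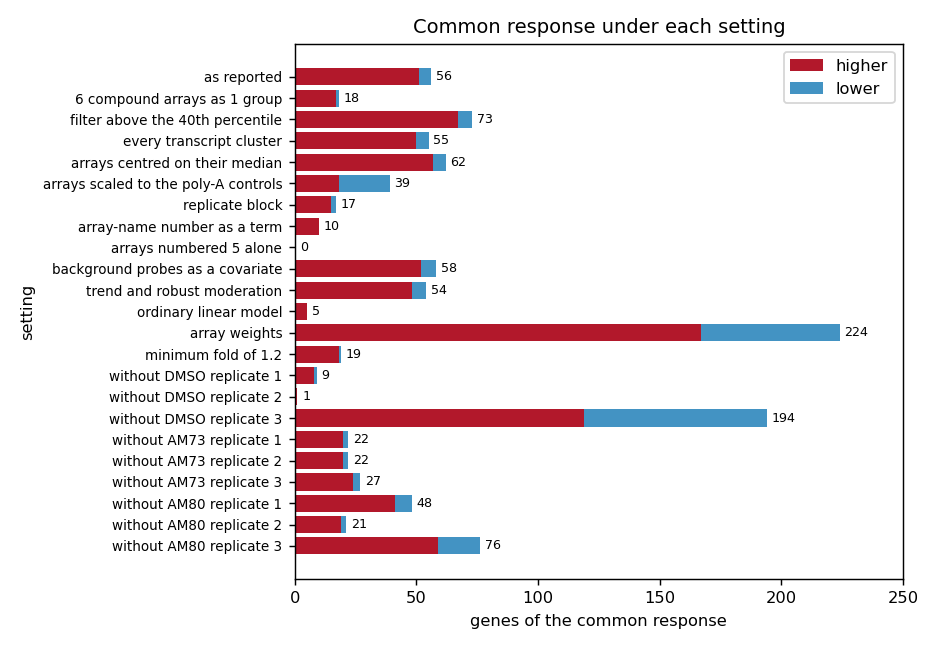
Number of genes in the common response (horizontal axis) as reported and under each other setting (vertical axis), with higher genes in red and lower genes in blue. The count is 56 as reported, 1 without DMSO replicate 2 and 194 without DMSO replicate 3.

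**Figure D2:**
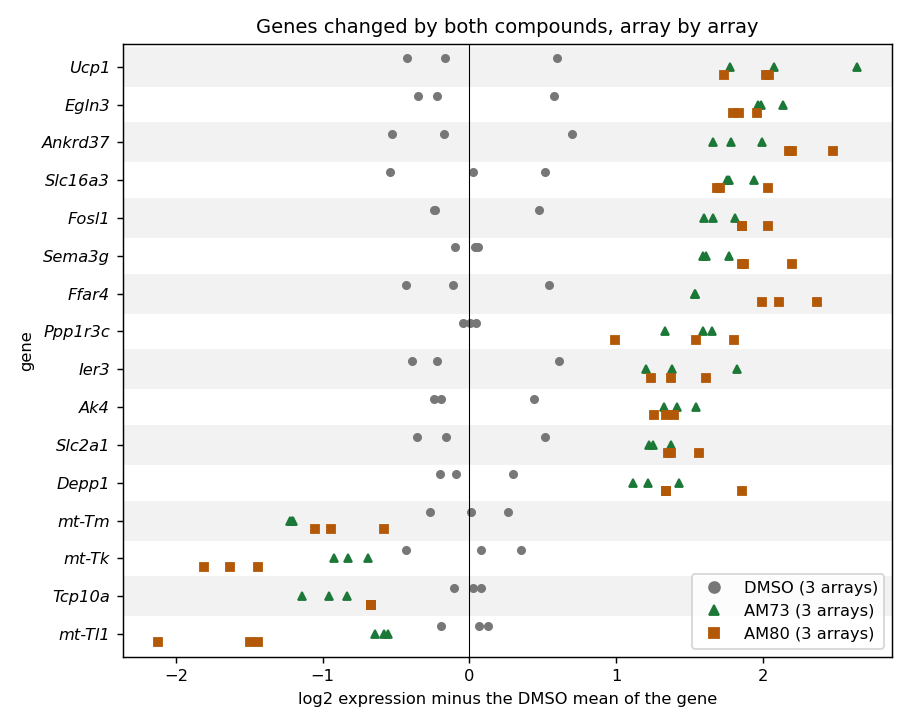
Log2 expression minus the DMSO mean of the gene (horizontal axis) on every array, for the 12 rises and 4 falls named from the common response (vertical axis), with DMSO arrays as circles, AM73 arrays as triangles and AM80 arrays as squares. In each of the 16 genes the 6 compound arrays lie to 1 side of the 3 DMSO arrays, which the rule of selection requires.

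Genes of the oxygen-sensing pathway formed the first group, and of the 31 gene lists read theirs held the most members of the common response. Of 54 measured HIF sensors and targets, 11 (20.4%) were in the common response, all higher, against 0.181% of all genes, and 24 were higher on all 6 compound arrays, against 1.6% of all genes. The median pooled change over the 54 was 0.41 (0.57 with AM73 and 0.385 with AM80), against 0.0083 over all genes, and 43 of the 54 changes were above 0. Scaled to the poly-A controls the list's median was 0.13. The list was chosen with earlier results of these data known, so its counts are a description. The share over all genes, here and for the other lists, includes many dim genes. The median DMSO level was 6.42 over this list and 2.82 over all genes.

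Among the sensors, Egln3 (mm10 chr12:54178981-54203874, minus strand), a prolyl hydroxylase, had levels of 7.41, 7.54 and 8.34 on DMSO replicates 1 to 3, of 9.9, 9.75 and 9.73 with AM73, and of 9.56, 9.72 and 9.6 with AM80. All 6 compound arrays lay more than 1 unit above the highest DMSO array. The pooled rise was 1.95 ± 0.18 (SE; 95% interval 1.54 to 2.36; adjusted p = 0.00548; 3.85-fold). AM73 and AM80 gave rises of 2.03 and 1.86, with the same DMSO arrays as reference, and their difference, AM80 minus AM73, was −0.17 (95% interval −0.64 to 0.30, adjusted p = 0.661). Egln1 (mm10 chr8:124908587-124949254, minus strand), the main prolyl hydroxylase in most cells, stood at 8.24, 8.44 and 8.76 with DMSO, at 9.71, 9.61 and 9.4 with AM73 and at 9.79, 9.57 and 9.45 with AM80. Its rise of 1.11 ± 0.14 (adjusted p = 0.0154) was smaller than that of Egln3 on this scale. The call for Egln3 was lost without DMSO replicate 2 (adjusted p = 0.0629). That for Egln1 was lost in 5 of the 9 fits with 1 array left out, those without replicate 1 or 2 of DMSO or of AM73, or replicate 2 of AM80 (adjusted p up to 0.124). Vhl, which carries the marked factor to breakdown, had a change of 0.515 that did not pass (adjusted p = 0.0803).

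The genes of the factors themselves did not pass in the pooled comparison. Hif1a, the α subunit of the best known factor, stood between 5.91 and 6.67 with DMSO, between 6.39 and 6.6 with AM73, and between 4.41 and 5.04 with AM80, so the AM73 arrays lay within the DMSO range and the AM80 arrays below it. The pooled change was −0.80 (adjusted p = 0.14), the mean of 0.13 with AM73 and −1.72 with AM80. The partner subunit gene Arnt changed by 0.0633 with AM73 and −0.68 with AM80, and Epas1 had a pooled change of −0.14 (adjusted p = 0.75). In each of these 3 genes the pooled mean thus stands for compound means that lay on either side of 0.

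The targets in the common response are described next. Ankrd37 (mm10 chr8:45996902-45999867, minus strand), a small ankyrin repeat gene known as a HIF target, stood at 4.5, 4.86 and 5.73 with DMSO, at 7.02, 6.81 and 6.69 with AM73 and at 7.51, 7.23 and 7.21 with AM80. It rose by 2.05 ± 0.23 (95% interval 1.54 to 2.56, adjusted p = 0.0109), and the compounds differed by 0.48 (95% interval −0.11 to 1.07, adjusted p = 0.273). The lowest compound array lay 0.96 above DMSO replicate 3. Ak4, a mitochondrial adenylate kinase, stood at 5.28, 5.33 and 5.96 with DMSO, at 7.07, 6.94 and 6.85 with AM73 and at 6.78, 6.92 and 6.86 with AM80, a rise of 1.38 ± 0.15 (adjusted p = 0.0105). Its 6 compound arrays lay between 6.78 and 7.07. Higd1a, an inner-membrane protein linked to the respiratory chain, had DMSO levels from 6.7 to 6.79 and rose by 0.97 ± 0.09 (adjusted p = 0.00548). Here AM80 gave the larger rise, 1.19 against 0.75, and the difference of 0.44 passed (95% interval 0.20 to 0.68, adjusted p = 0.0164). Zfp395, a zinc finger gene, rose by 1.155 (adjusted p = 0.0109) and Bhlhe40, a repressor that also acts in the circadian clock, by 0.70 (adjusted p = 0.0327). Without DMSO replicate 1 or 2 the calls of Ankrd37, Ak4, Higd1a and Zfp395 were lost (adjusted p up to 0.0969), and that of Bhlhe40 was lost in 7 of the 9 fits with 1 array left out, remaining only without DMSO replicate 3 or AM80 replicate 3 (adjusted p up to 0.216).

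Of the 3 collagen prolyl hydroxylase genes on the list, 2 rose. P4ha1 (mm10 chr10:59323296-59373304, plus strand), whose product hydroxylates proline in new collagen chains, stood at 7.92, 7.95 and 8.21 with DMSO, at 9.43, 9.31 and 9.4 with AM73 and at 9.13, 9.25 and 9.09 with AM80. P4ha2 stood at 5.0, 5.27 and 5.42 with DMSO, at 6.49, 6.32 and 6.45 with AM73 and at 6.57, 6.51 and 6.45 with AM80. As in every gene of the common response, the rule of selection leaves no overlap between compound and DMSO arrays. P4ha1 rose by 1.24 ± 0.10 (adjusted p = 0.00322) and P4ha2 by 1.235 ± 0.11 (adjusted p = 0.00505), and among the 9 fits with 1 array left out both calls were lost only without DMSO replicate 2 (adjusted p = 0.0508 each). The related P4ha3, with a DMSO level of 2.62, had a change of −0.275 that did not pass (adjusted p = 0.441).

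Glycogen genes were read singly, since no list of them was fixed. Ppp1r3c, which brings a phosphatase to glycogen, stood at 6.54, 6.63 and 6.59 with DMSO, at 8.18, 8.24 and 7.92 with AM73 and at 7.58, 8.13 and 8.39 with AM80. The DMSO arrays were tight, and AM80 replicate 1 was the lowest compound array. The rise was 1.49 ± 0.16 (adjusted p = 0.0105, 2.80-fold). Gys1, the glycogen synthase of muscle and most other tissues, rose by 0.95 ± 0.10 (adjusted p = 0.0105), from DMSO levels between 8.02 and 8.37 to compound levels between 9.03 and 9.27. Both calls were lost without DMSO replicate 1 or 2 (adjusted p up to 0.0874). Gbe1, the glycogen branching enzyme, had a pooled change of 0.0333 (adjusted p = 0.937), the mean of 0.42 with AM73 and −0.35 with AM80. Pgm1, a phosphoglucomutase, which joins glycogen to glycolysis, rose by 0.755 (adjusted p = 0.04). Its changes were 0.43 with AM73, which alone did not pass (adjusted p = 0.468), and 1.08 with AM80. That difference of 0.65 passed (adjusted p = 0.00699). Its pooled call held only without DMSO replicate 3 or AM80 replicate 3 among the fits with 1 array left out (adjusted p up to 0.236).

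A further 13 genes of the list were higher on all 6 compound arrays without passing the test. Ndrg1, a stress-response gene, stood at 6.29, 6.78 and 7.77 with DMSO, at 8.72, 8.45 and 8.76 with AM73 and at 8.37, 8.39 and 8.7 with AM80. Its change of 1.62 was among the largest on the list, but the DMSO arrays spread widely and the adjusted p was 0.0567. Adm, which encodes the vessel-widening peptide adrenomedullin, had a change of 1.11 (adjusted p = 0.0559), Mxi1, an antagonist of MYC, one of 0.94 (0.0567), and Ddit4, an inhibitor of the growth kinase mTOR, one of 1.03 (0.109). Other well known targets were not in the common response. Vegfa, the vessel growth factor gene, stood at 9.51 to 9.6 with DMSO, 10.0 to 10.2 with AM73 and 9.55 to 9.58 with AM80, so the AM80 arrays lay within the DMSO range. AM80 minus AM73 was −0.56 for Vegfa (adjusted p = 0.00332) and −1.08 for the mitophagy receptor gene Bnip3 (adjusted p = 0.0019), though against DMSO the AM73 changes of 0.56 and 0.96 did not pass (adjusted p = 0.0927 and 0.0922).

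**Figure D3:**
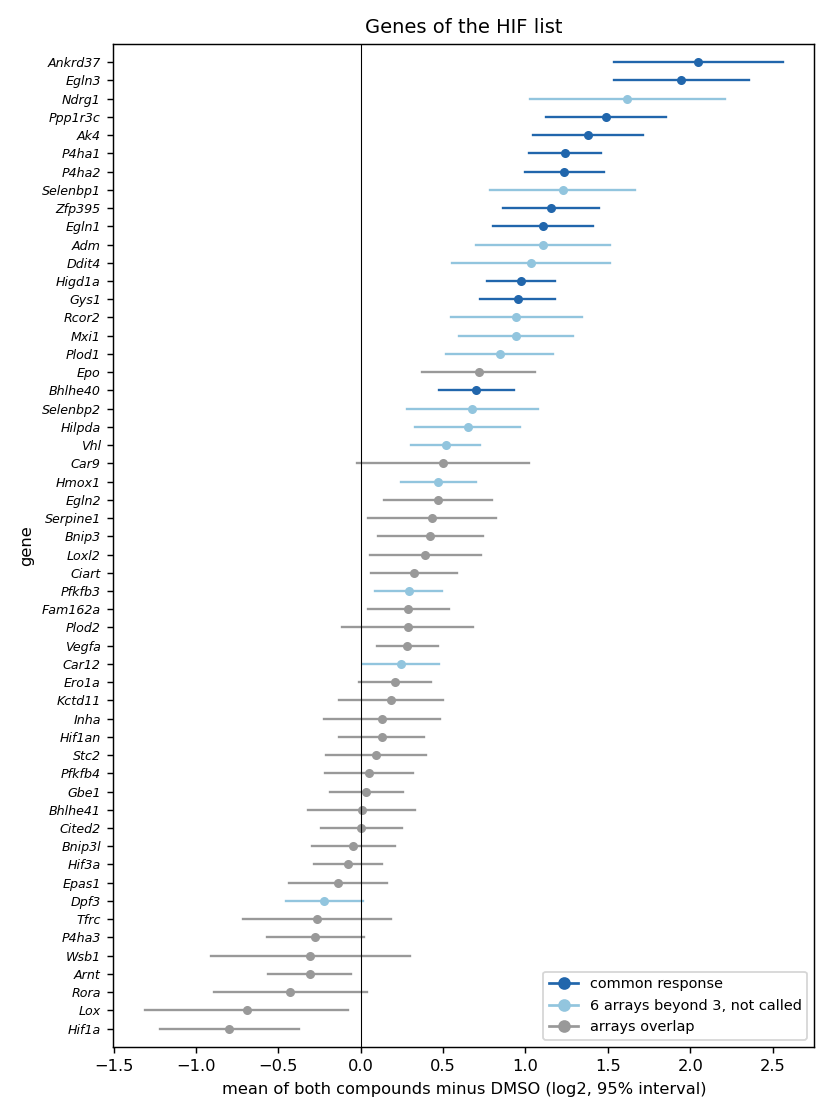
Pooled change (both compounds minus DMSO, log2, with 95% intervals) of the 54 measured genes of the HIF list, ordered by size. Dark blue marks the 11 genes of the common response, light blue genes whose 6 compound arrays lay beyond the 3 DMSO arrays without passing the test, and grey genes whose arrays overlap.

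Promoter sequences were read for the genes that rose, because HIF binds the core letters ACGTG or GCGTG. RefSeq (GRCm38.p6) held the 250 bases before the start for 36 of the 51 genes, with 46 starts, and for 18762 of all genes tested, with 22789 starts. At least 1 core on either strand was present in 28 of the 46 (60.9%), against 44.2% of all promoters. It was present in 11 of the 12 promoters of 9 genes on the HIF list (91.7%) and in 17 of the 34 others, of 27 genes. Those 12 include several starts of Ak4 and had a median of 21.5 CpG pairs, against 13 for the 34. The promoters of the genes that rose were richer in CpG pairs, with a median of 15 against 9, and the core holds such a pair. Among promoters with 0 to 4 CpG pairs the core was found in 28.6% of the 7 of this set and in 15.9% of all, and among those with 25 or more in 87.5% of 8 and in 71.8% of all. Among promoters with 15 to 24 CpG pairs the core was found in 62.5% of the 16 of this set and in 66.1% of all, and among those with 5 to 14 in 9 of 15 and in 47.4% of all. The AP-1 site TGANTCA was found in 0 of the 46 and in 6.38% of all, and the estrogen-related receptor site TCAAGGTCA in 0 and in 0.333%. The E-box CACGTG, which overlaps the ACGTG core, was found in 4.35% and in 6.69%. GCGTG is also the core bound by the aryl hydrocarbon receptor. A match of letters is a description of the window and no evidence of binding.

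The promoters below are those of 4 strongly raised genes with a core and of Sema3g, which has none, printed 5′ to 3′ on the gene's own strand with each core in capitals.
Egln3 (GRCm38.p6, chr12:54203875-54204124, minus strand): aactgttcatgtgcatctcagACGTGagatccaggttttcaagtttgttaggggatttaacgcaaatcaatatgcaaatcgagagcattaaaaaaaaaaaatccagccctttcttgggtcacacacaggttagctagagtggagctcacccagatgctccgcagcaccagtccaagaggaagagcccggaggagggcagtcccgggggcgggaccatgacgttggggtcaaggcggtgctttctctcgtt
Slc16a3 (GRCm38.p6, chr11:120948817-120949066, plus strand): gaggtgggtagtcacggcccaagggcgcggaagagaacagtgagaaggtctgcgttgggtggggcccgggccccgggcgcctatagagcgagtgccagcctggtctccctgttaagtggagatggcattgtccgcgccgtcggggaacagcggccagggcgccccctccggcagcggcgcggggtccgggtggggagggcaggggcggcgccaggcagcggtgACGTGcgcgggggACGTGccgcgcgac
Ankrd37 (GRCm38.p6, chr8:45999851-46000100, minus strand): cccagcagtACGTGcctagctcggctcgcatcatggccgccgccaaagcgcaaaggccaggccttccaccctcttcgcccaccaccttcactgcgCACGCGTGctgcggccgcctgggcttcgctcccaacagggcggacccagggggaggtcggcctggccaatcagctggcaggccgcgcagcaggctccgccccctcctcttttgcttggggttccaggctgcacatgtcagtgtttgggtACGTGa
P4ha1 (GRCm38.p6, chr10:59323046-59323295, plus strand): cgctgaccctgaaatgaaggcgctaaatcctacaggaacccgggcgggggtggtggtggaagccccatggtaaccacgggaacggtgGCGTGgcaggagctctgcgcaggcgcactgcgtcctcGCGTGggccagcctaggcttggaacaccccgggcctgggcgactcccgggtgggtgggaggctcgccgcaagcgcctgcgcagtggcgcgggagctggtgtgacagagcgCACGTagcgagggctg
Sema3g (GRCm38.p6, chr14:31217623-31217872, plus strand): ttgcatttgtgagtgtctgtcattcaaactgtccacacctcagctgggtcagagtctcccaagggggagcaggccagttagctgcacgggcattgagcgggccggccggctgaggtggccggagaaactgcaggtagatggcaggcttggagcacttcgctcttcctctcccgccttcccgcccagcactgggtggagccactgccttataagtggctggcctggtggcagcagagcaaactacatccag

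The 4 promoters with cores differ in number: Egln3 has 1 core, Slc16a3 has 2, P4ha1 has 3 and Ankrd37 has 4, of which 1 pair overlaps on opposite strands. Slc16a3, on no HIF list here, carries its 2 cores within 27 bases of the RefSeq start used. That start lies inside the span of the measured cluster, downstream of the cluster's first base.

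Genes of glucose uptake, glycolysis and lactate export formed the second group. Of 27 measured, 4 were in the common response (14.8%, against 0.181% of all genes), all higher. On all 6 compound arrays 12 were higher (44.4%, against 1.6% of all genes), and 23 had a change above 0. The list's median was 0.315 (0.20 with AM73, 0.43 with AM80) and 0.0383 after scaling to the poly-A controls.

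The genes that passed sit at the entry, the regulated step and the exit of the pathway. Slc16a3 (mm10 chr11:120948480-120960868, plus strand), the lactate exporter MCT4, stood at 4.25, 4.82 and 5.31 with DMSO, at 6.73, 6.55 and 6.56 with AM73 and at 6.83, 6.48 and 6.5 with AM80. Every compound array lay at least 1.17 above DMSO replicate 3, the highest control. The rise was 1.815 ± 0.20 (95% interval 1.37 to 2.26, adjusted p = 0.0105, 3.52-fold), and the compounds differed by −0.01 (95% interval −0.52 to 0.50, adjusted p = 0.985). Slc2a1, the glucose transporter GLUT1, stood at 7.86, 8.06 and 8.73 with DMSO, at 9.59, 9.44 and 9.47 with AM73 and at 9.78, 9.59 and 9.57 with AM80. It rose by 1.36 ± 0.17 (adjusted p = 0.018). Pfkl, a phosphofructokinase of the committed step, rose by 0.91 (adjusted p = 0.0423). Its changes were 0.57 with AM73, which alone did not pass (adjusted p = 0.409), and 1.25 with AM80. The difference of 0.68 passed (adjusted p = 0.0147). Pdk1, which switches off pyruvate dehydrogenase, rose with both compounds and more with AM73, as described below.

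Among the 9 fits with 1 array left out, Slc16a3 lost its call only without DMSO replicate 2 (adjusted p = 0.0846), and it lost it also with the array-name number as a term (adjusted p = 0.0599). Slc2a1 kept its call in 3 of the 9 fits with 1 array left out, those without replicate 3 of DMSO or replicate 1 or 3 of AM80 (adjusted p up to 0.136 elsewhere), and Pfkl in 2, those without replicate 3 of DMSO or of AM80 (up to 0.273 elsewhere). Enzymes between these steps had changes that did not pass. Hk2, the hexokinase of insulin-responsive tissue, had a change of 0.60 (adjusted p = 0.100), Ldha, which makes lactate, 0.43 (0.127), and Pgam1 0.79 (0.0803), each higher on all 6 compound arrays. Gapdh and Pgk1, both abundant at over 11 on the log2 scale in DMSO cells, had changes of 0.0333 (95% interval −0.14 to 0.21) and 0.0767 (−0.17 to 0.33). Both intervals lie below the pooled change of every gene that rose. Of the other Pdk genes, Pdk2, Pdk3 and Pdk4 had pooled changes of 0.32, −0.12 and 0.0017, and none passed.

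Jumonji histone demethylases, which share their cofactors with the EGLN enzymes, gave 2 of 23 measured genes in the common response (8.7%, against 0.181% of all genes). Kdm4b, which removes methyl marks from histone H3, stood at 4.49, 4.83 and 4.81 with DMSO, at 5.76, 5.82 and 5.65 with AM73 and at 6.77, 6.03 and 5.88 with AM80. AM80 replicate 1 lay apart from the other compound arrays. The rise was 1.275 (adjusted p = 0.0327), and that of Jmjd6, a hydroxylase of the same family, was 0.88 (adjusted p = 0.018). Both calls were lost without replicate 1 or 2 of DMSO or of AM73 and without replicate 2 of AM80, and that of Kdm4b also without replicate 3 of AM73 (adjusted p up to 0.216 for Kdm4b and 0.146 for Jmjd6). Kdm3a, a known HIF target, was not in the common response: with AM73 it stood at 8.19, 8.07 and 8.2, above DMSO levels of 6.63, 6.83 and 6.03, and with AM80 at 6.47, 6.18 and 6.84. Over the whole list the median change was 0.05, which turned to −0.23 after scaling to the poly-A controls and to −0.0033 on the arrays numbered 5.

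Ucp1 (mm10 chr8:83290348-83298456, plus strand), which makes the heat-producing uncoupling protein, had the highest smaller response of the 2 compounds among all genes of the common response. It stood at 3.54, 3.8 and 4.56 with DMSO, at 6.61, 6.04 and 5.74 with AM73 and at 5.99, 5.7 and 6.01 with AM80. All compound arrays lay at least 1.14 above DMSO replicate 3. The pooled rise was 2.05 ± 0.24 (95% interval 1.51 to 2.59, adjusted p = 0.0116, 4.14-fold), with 2.16 for AM73 and 1.93 for AM80, and the difference of −0.23 did not pass (95% interval −0.85 to 0.39, adjusted p = 0.643). The call was lost without DMSO replicate 1, DMSO replicate 2 or AM73 replicate 2 (adjusted p up to 0.103), and with the array-name number as a term (adjusted p = 0.0606).

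Ucp1 was the 1 gene of 30 measured thermogenic genes in the common response (3.33%, against 0.181% of all genes). Cidea, a lipid droplet protein of brown fat, stood at 3.5, 4.51 and 4.41 with DMSO, at 4.93, 4.73 and 4.86 with AM73 and at 5.42, 4.73 and 4.73 with AM80. The groups did not overlap, but DMSO replicate 1 lay far below the other control arrays, and the change of 0.76 did not pass (adjusted p = 0.226). Ppargc1a, the gene of the coactivator in the series title, stood at 7.31, 7.19 and 6.67 with DMSO, at 6.82, 6.8 and 6.82 with AM73 and at 5.14, 5.23 and 5.83 with AM80. AM73 arrays fell inside the DMSO range and AM80 arrays below it. The pooled change of −0.95 ± 0.18 did not pass (adjusted p = 0.0851). It passed without DMSO replicate 3, without AM80 replicate 3, with array weights and after scaling to the poly-A controls. Esrra, a nuclear receptor that PGC-1α coactivates, had a pooled change of 0.42 (adjusted p = 0.205), the mean of −0.13 and 0.98. Elovl3, a fatty acid elongase of brown fat, was lower on all 6 compound arrays by 0.375 without passing (adjusted p = 0.349). The list's median of 0.11 turned to −0.17 with poly-A scaling.

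Among 33 fat cell genes driven by PPARγ, 2 were in the common response, both higher (6.06%, against 0.181% of all genes). Ffar4 (mm10 chr19:38097079-38114263, plus strand), a cell surface receptor for long-chain fatty acids, stood at 6.46, 6.78 and 7.43 with DMSO, at 8.43 on all 3 AM73 arrays, and at 9.26, 9.0 and 8.88 with AM80. Its rise was 1.85 ± 0.19 (adjusted p = 0.00799, 3.60-fold), and the AM80 arrays all lay above the AM73 arrays by a mean of 0.62 (95% interval 0.14 to 1.10) that did not pass over all genes (adjusted p = 0.0774). Among the 9 fits with 1 array left out, that call was lost only without DMSO replicate 2 (adjusted p = 0.0753), and it was lost also with the 6 compound arrays as 1 group (adjusted p = 0.0558). Angptl4, a secreted inhibitor of lipoprotein lipase, rose by 1.09 (adjusted p = 0.0315), from DMSO levels of 6.64 to 7.32 to compound levels of 7.64 to 8.58, and AM80 exceeded AM73 by 0.59 (adjusted p = 0.0457). Its call held only without DMSO replicate 3 or AM80 replicate 3 among the fits with 1 array left out (adjusted p up to 0.189). Pparg itself had a pooled change of −0.44 (adjusted p = 0.209), the mean of 0.0333 with AM73 and −0.91 with AM80. Adipoq, the adiponectin gene, had a change of 0.12 (95% interval −0.11 to 0.35).

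Of the AP-1, immediate early and MAPK feedback genes measured, 11.8%, 3.57% and 5.56% were in the common response, against 0.181% of all genes. These shares rest on 2, 1 and 1 genes. Fosl1 (mm10 chr19:5447698-5455945, plus strand), the AP-1 subunit FRA1, stood at 5.1, 5.09 and 5.81 with DMSO, at 7.14, 6.93 and 6.99 with AM73 and at 7.37, 7.19 and 7.19 with AM80. The rise was 1.80 ± 0.16 (adjusted p = 0.00505, 3.49-fold), lost without DMSO replicate 2 (adjusted p = 0.0508). Its relative Fosl2 rose by 0.78 (adjusted p = 0.018), with DMSO levels of 5.63 to 5.83 and compound levels of 6.35 to 6.65. Of the 17 AP-1 genes measured these 2 passed, Jun had a change of 0.49 (adjusted p = 0.159), and Fos and Fosb, the fast early members, had changes of −0.05 and 0.015. Ier3, an early response gene of cell survival that is on the immediate early and MAPK feedback lists, stood at 5.79, 5.62 and 6.62 with DMSO and between 7.21 and 7.83 with the compounds, a rise of 1.44 ± 0.22 (adjusted p = 0.0423). It was the 1 member in the common response of 28 immediate early genes and of 18 MAPK feedback genes. The calls of Fosl2 and Ier3 were lost in 6 and 7 of the 9 fits with 1 array left out, each without either DMSO replicate 1 or 2, any AM73 array or AM80 replicate 2, and that of Ier3 also without AM80 replicate 1 (adjusted p up to 0.153 and 0.282).

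Sema3g (mm10 chr14:31217860-31230350, plus strand), a secreted class 3 semaphorin that acts through neuropilin receptors, gave the smallest p-value. It stood at 4.47, 4.63 and 4.61 with DMSO, at 6.18, 6.34 and 6.16 with AM73 and at 6.77, 6.43 and 6.44 with AM80. Within each group the arrays lay close together, and the gap between the highest DMSO and the lowest compound array was 1.53, the widest of all genes in the common response. The rise was 1.82 ± 0.11 (95% interval 1.58 to 2.05, adjusted p = 0.000431, 3.52-fold). It held in all 9 fits with 1 array left out (change 1.76 to 1.85, adjusted p up to 0.00939) and with the array-name number as a term (adjusted p = 0.0044), and was lost on the arrays numbered 5 alone (change 1.81, adjusted p = 0.753). AM80 exceeded AM73 by 0.32 (95% interval 0.045 to 0.595, adjusted p = 0.107). Of 21 measured semaphorins and guidance receptors it was the 1 in the common response (4.76%, against 0.181% of all genes).

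Depp1, a regulator of autophagy, rose by 1.38 ± 0.16 (adjusted p = 0.0109), from DMSO levels of 4.43, 4.54 and 4.93 to 5.85, 6.06 and 5.75 with AM73 and 5.97, 5.97 and 6.49 with AM80. Slc11a2, an importer of iron, rose by 0.88 ± 0.11 (adjusted p = 0.018), from 6.76 to 7.01 with DMSO to between 7.6 and 7.91 with the compounds. It was the 1 member of 25 heme and iron genes in the common response (4.0%, against 0.181% of all genes). The compounds' difference in Slc11a2 was −0.11 (95% interval −0.40 to 0.17). Hamp, which encodes the iron hormone hepcidin, had the opposite sign: all 6 compound arrays, at 2.59 to 4.25, lay below DMSO levels of 4.73 to 4.85, but the change of −1.42 did not pass (adjusted p = 0.0607). Depp1 lost its call without DMSO replicate 1 or 2 (adjusted p up to 0.0987), and Slc11a2 lost it without either of these, AM73 replicate 2 or 3, or AM80 replicate 2 (up to 0.146).

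The genes that fell were few, and 3 of the 5 were mitochondrial transfer RNA genes. The gene mt-Tm (mm10 chrM:3845-3913, plus strand), for methionine, stood at 9.13, 9.38 and 8.85 with DMSO, at 7.91, 7.9 and 7.92 with AM73 and at 8.54, 8.07 and 8.18 with AM80, a pooled change of −1.03 ± 0.14 (adjusted p = 0.0225). For mt-Tk (chrM:7700-7764), for lysine, the levels were 9.78, 9.51 and 9.0 with DMSO, 8.74, 8.6 and 8.51 with AM73, and 7.99, 7.62 and 7.8 with AM80. Its pooled change was −1.22 ± 0.16 (adjusted p = 0.0225). For mt-Tl1 (chrM:2676-2750), for leucine, AM73 arrays stood at 11.7 to 11.8 and AM80 arrays at 10.2 to 10.9, below DMSO levels of 12.2 to 12.5, a change of −1.14 ± 0.15 (adjusted p = 0.0231). In mt-Tk and mt-Tl1 the AM80 arrays were the lowest of all, with differences of −0.81 (adjusted p = 0.0134) and −1.09 (adjusted p = 0.00253) from AM73. Each of the 3 calls was lost without DMSO replicate 1 or 2, any AM73 array or AM80 replicate 2 (adjusted p up to 0.189).

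Most mitochondrial genes read did not pass. Of 20 mitochondrially encoded genes measured, these 3 transfer RNA genes were in the common response, all lower, against 0.0162% of all genes. The other 17 did not pass, with pooled changes from −1.16 (mt-Ty, adjusted p = 0.17) to 0.445 (mt-Ts1). The ribosomal RNA genes mt-Rnr1 and mt-Rnr2, at over 12 in DMSO cells, had changes of −0.12 and −0.14 (adjusted p = 0.592 and 0.545). The list's median was −0.48 with AM73 and 0.07 with AM80. The remaining falls were Tcp10a, a t-complex gene, and the predicted gene Gm10471. Tcp10a lay near the floor of the array, at 2.91, 2.86 and 2.73 with DMSO and between 1.69 and 2.16 with the compounds, and the annotation gives its probes as cross-hybridising. It fell by 0.825 (adjusted p = 0.0115), a call lost without DMSO replicate 1 or 2 (adjusted p up to 0.0999). Gm10471 fell by 1.435 (adjusted p = 0.0116), to compound levels of 2.16 to 2.66, and lost its call without DMSO replicate 1 or 2 or AM73 replicate 1 (adjusted p up to 0.0874).

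The groups above and the comparison below leave 19 of the 51 genes that rose, of which 5 are predicted genes. Their pooled changes ran from 0.52 for the predicted gene Gm15792 to 1.37 for Apln. Apln, which encodes the secreted peptide apelin, stood at 5.49, 5.8 and 6.27 with DMSO, at 6.88, 7.18 and 6.97 with AM73 and at 7.39, 7.57 and 7.37 with AM80 (adjusted p = 0.0115). Its AM80 arrays lay above its AM73 arrays, by 0.43 (adjusted p = 0.143). Enzymes and carriers among the 19 were Pde2a, a cyclic nucleotide phosphodiesterase, at 0.96, Slc25a34, of the mitochondrial carrier family, at 0.90, Slc27a3, of the fatty acid transport family, at 0.88, Ephx1, an epoxide hydrolase, at 0.74 and Impa2, an inositol phosphatase, at 0.65. Kinases and adaptor genes were Limk1, which acts on actin turnover, at 0.935, Snrk at 0.89 and Plekha2 at 0.865. The others were Kbtbd11 at 1.03, Cables1 at 0.98, Uaca at 0.855, Bcl9l, a coactivator of Wnt signalling, at 0.75, and Tgfbi, a matrix protein gene, at 0.74. Of these 14 genes with changes given here, Slc25a34 lost its call only without DMSO replicate 2 (adjusted p = 0.0629), and Uaca lost it only without DMSO replicate 1 or 2 (adjusted p up to 0.0969), among the 9 fits with 1 array left out. The other 12 lost theirs without either of these and in 1 to 6 further fits, with Plekha2 keeping its call only without DMSO replicate 3.

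**Figure D4:**
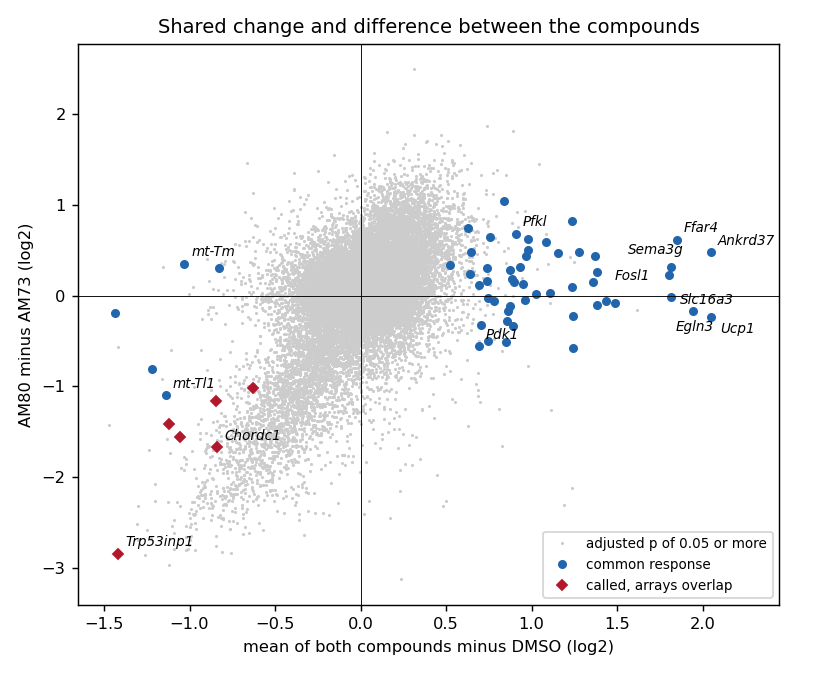
Each point is a gene, placed by its pooled change (horizontal axis, log2, mean of both compounds minus DMSO) and by AM80 minus AM73 (vertical axis, log2). Blue circles are the 56 genes of the common response, red diamonds the 6 called genes whose arrays overlap and grey points the genes that were not called. The red diamonds lie far below 0 on the vertical axis, with Trp53inp1 lowest at −2.84, and Slc16a3 lies at −0.01.

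The compounds were compared directly within the common response, at the same dose and time, as 1 pair. Against DMSO alone, AM73 was called for 28 of the 56 genes (37 of all genes, 0.120%) and AM80 for all 56 (13.9% of all genes, 6.9% higher and 7.04% lower), but both comparisons use the same DMSO arrays and the genes were chosen on their mean, so these counts are a description. Genes without a call for AM73 alone included Pfkl, Pgm1, Angptl4 (adjusted p = 0.239), Kdm4b (0.167) and Ier3 (0.0939). The changes of the 51 genes that rose ran from 0.26 to 2.16 with AM73 (median 0.95) and from 0.41 to 2.29 with AM80 (median 1.09). AM80 minus AM73 passed for 16 of the 56 genes, against 19.1% of all genes (9.92% with AM80 above and 9.22% with AM80 below). Among genes that rose AM80 was above AM73 for 10 and below it for 4, and among genes that fell it was below for 2. For the other 40 the difference lay between −0.33 and 0.62, and for 15 of these the 95% interval stayed within 0.5 of 0.

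Pdk1 showed the clearest excess of AM73. It stood at 6.97, 6.93 and 6.99 with DMSO, at 7.96, 8.07 and 7.77 with AM73 and at 7.31, 7.3 and 7.51 with AM80. Its pooled rise was 0.69 (adjusted p = 0.0315), and AM80 minus AM73 was −0.56 (95% interval −0.81 to −0.31, adjusted p = 0.00699). Fam117b, at −0.58 (adjusted p = 0.0268), Mboat2, a lysophospholipid acyltransferase gene, at −0.51 (0.0171), and Slc9b2, a sodium-proton exchanger gene, at −0.50 (0.00793) also rose more with AM73. On the AM80 side the largest differences among symbols that name no predicted gene were those of Smtnl2, at 0.83 (adjusted p = 0.0147), and Tfpt, at 0.74 (0.00192). These 5 other genes were named after their values were seen. The pooled call of Pdk1 was lost without replicate 1 or 2 of DMSO or of AM73 and without replicate 2 of AM80 (adjusted p up to 0.19). When the mean of the brightest background probes entered the fit as a covariate, 0 of the 56 differences between the compounds passed. Those probes, the 6 brightest of 23, averaged 5.91 ± 0.21 with AM80 and 5.04 ± 0.49 with AM73 (SD, n = 3). The AM73 arrays (4.52 to 5.48) and AM80 arrays (5.69 to 6.12) did not overlap. That fit therefore cannot tell the probe level from the compound. The median over all 23 probes was 2.26 with AM80 and 2.18 with AM73.

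**Figure D5:**
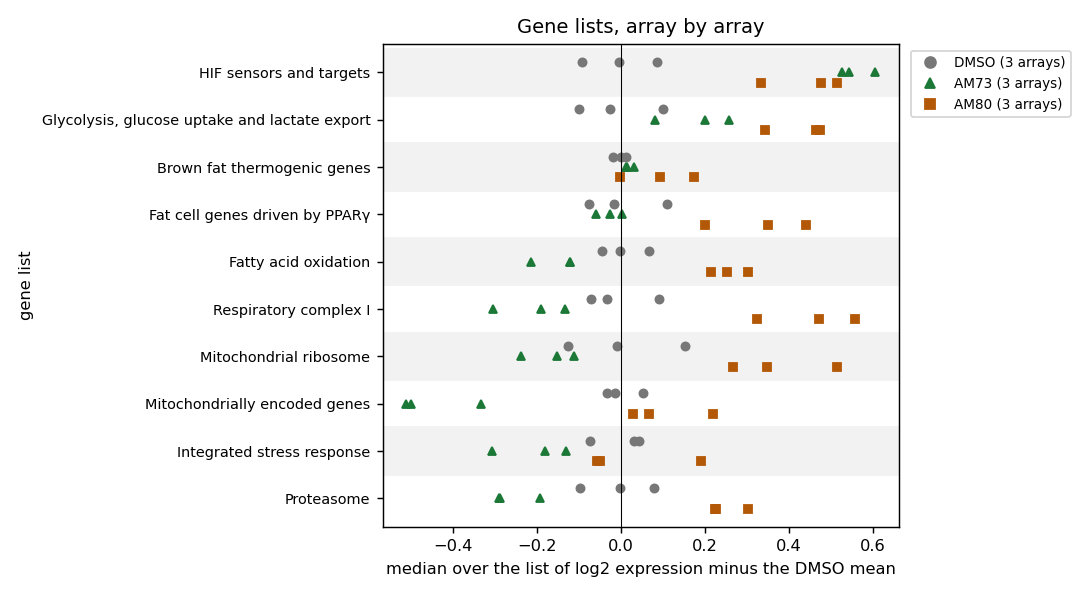
Median over each gene list of the log2 level minus the DMSO mean (horizontal axis), for every array and 10 lists (vertical axis). HIF sensors and targets lie at 0.33 to 0.605 on all 6 compound arrays, while for respiratory complex I and the proteasome the AM73 arrays lie below 0 and the AM80 arrays above it.

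Of the 31 lists, 12 had a member in the common response and 19 had none. Of all genes 0.181% were in it, so a list of these sizes with none lies near that share. For several of the lists without a member, the pooled median hid opposite compound medians. The 36 genes of respiratory complex I had a median of −0.23 with AM73 and 0.44 with AM80 (pooled 0.13), the 38 of the mitochondrial ribosome −0.155 and 0.37 (pooled 0.0833), and the 30 of the proteasome −0.24 and 0.24 (pooled 0.025). In the direct comparison AM80 was above AM73, past the threshold, for 29, 23 and 19 of these genes, against 9.92% of all genes. With the background covariate, whose values do not overlap between AM73 and AM80 arrays, that comparison called 0 of all genes in place of 5907. The arrays numbered 5 hold 1 AM73 array and 1 DMSO array, so a count there cannot be set against 5907. Of the 13 aryl hydrocarbon receptor genes 0 were higher on all 6 compound arrays, against 1.6% of all genes. Among 27 NRF2 targets and 25 retinoic acid genes 1 and 2 were. The median pooled changes of these 3 lists were −0.0233, 0.13 and 0.035. Integrated stress response (29 genes, median −0.12), unfolded protein response (20, −0.0358), heat shock (20, −0.0242), p53 (24, 0.0775), cAMP (20, 0.0834) and NF-kB (24, 0.0442) lists also held no member of the common response. In lipid and central metabolism the lists without a member were cholesterol synthesis (25 genes, 0.11), fatty acid synthesis (20, −0.0358), fatty acid oxidation (24, 0.0633), citric acid cycle (24, −0.0067) and complexes II to V (35, 0.05). Of the lists with a member, the median changes not yet given were 0.11 for PPARγ-driven genes, 0.0533 for AP-1, 0.015 for immediate early genes, 0.0192 for MAPK feedback genes, 0.045 for the 19 clock genes (member Bhlhe40), −0.045 for heme and iron, 0.0283 for semaphorins and −0.12 for mitochondrially encoded genes. The remaining 2 without a member were DNA replication (27, −0.0217) and collagens and matrix (30, 0.0142). The signs of these medians at or under 0.13 turned with poly-A scaling wherever they were above 0.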

How the data were processed

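RNA (100 ng of total RNA per array) of 9 samples, 3 per group, was measured on Affymetrix whole-transcript arrays. Per the file headers, the authors made the deposited log2 values by RMA, which comprises a background step, quantile normalization between arrays and summary by median polish, with NetAffx build 35 annotation on mm10. Expression Console 1.41 is named in the submitters' processing notes.

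Of 41345 features, 33793 were gene features and 32202 carried a symbol. Symbols were updated through Entrez identifiers, and each symbol was represented by its brightest cluster, judged on the mean of the 9 arrays, which left 30860 genes (3415 cross-hybridising). No pair of the 36 pairs of arrays held identical values (0 pairs). A single fit of 3 group means with 6 residual degrees of freedom was made in limma 3.58.1 (lmFit and eBayes, R 4.3.3 with data.table, version 1.17.8). The pooled contrast is the mean of AM73 and AM80 minus DMSO. Tests are two-sided, adjusted by Benjamini-Hochberg over all 30860 genes, with a threshold of 0.05. Intervals are 95% intervals of the fit, and the number of arrays limits the precision. The fit was tested on simulated data with independent arrays and the same change with both compounds. Those data hold no shifts of whole arrays and no opposite compound changes.

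The members and the gene lists (31 lists and 6 marker lists) were chosen with earlier results of these data known. Named genes are the 12 rises and 12 falls of the common response with the largest smaller change of the 2 compounds (4 falls qualified), leaving out predicted and small RNA symbols. Ucp1, Ppargc1a, Cidea, Pparg and Esrra are always named, with up to 4 members per list and those needed to say which did not pass. Egln1, Zfp395, Gys1, Pgm1 and the genes of the paragraph on Apln were added after their values were seen. Replicate numbers do not pair the samples: deviations of same-numbered arrays correlated between −0.30 and 0.0682. Promoters are RefSeq sequences, matched by symbol.

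Alternatives were the 6 compound arrays as 1 group, a filter on dim genes, every cluster, centring, poly-A scaling, a replicate block, the array-name number, background probes as a covariate, trend and robust moderation, an ordinary linear model, array weights, a minimum fold and leaving out each array.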

Additional observations from a re-analysis of the deposited data

Results flagged for a closer look

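Among the 6 compound arrays, 3 named genes had 1 array whose gap to the nearest, over the whole range, passed Dixon's limit for 6 values. The ratio was 0.626 for Ucp1, where AM73 replicate 1 (6.61) was the highest, 0.71 for Cidea, where AM80 replicate 1 (5.42) was, and 0.661 for Kdm4b, where AM80 replicate 1 (6.77) was. Chance marks about 1 in 20 such groups, and 31 named genes were read.

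For 9 named genes the difference AM80 minus AM73 passed limma's test, so their responses to the compounds differed in size or in sign. It was −1.41 for Ppargc1a, −0.94 for Pparg and 1.11 for Esrra, none of which was in the common response. Among members of the common response it was −1.09 for mt-Tl1, −0.81 for mt-Tk and −0.56 for Pdk1. The differences in favour of AM80 were 0.68 for Pfkl, 0.59 for Angptl4 and 0.44 for Higd1a.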

How the results depend on the processing

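No named gene changed sign under the other settings, which for the 56 genes the rule of selection fixes wherever arrays are only left out. Counts are given as genes called, then common response higher and lower, against 62, 51 and 5 as reported. They were 18, 17 and 1 with the compound arrays as 1 group, 745, 18 and 21 with poly-A scaling, 10, 10 and 0 with the array-name number as a term, and 0, 0 and 0 on the arrays numbered 5. They were 5, 5 and 0 with an ordinary linear model, 691, 167 and 57 with array weights, and 19, 18 and 1 with a minimum fold of 1.2. Without a p threshold 494 and 296 genes were beyond DMSO. Leaving out 1 array gave 1 to 355 calls, 1 to 119 higher and 0 to 75 lower. The block for the replicate number gave 19, 15 and 2, but the numbers do not pair the samples. A filter at the 40th percentile gave 91 calls. AM80 minus AM73 passed for 16 of the 56 as reported, for 48 with poly-A scaling and 7 with the array-name number. It passed for 3 with the minimum fold and 0 with the background covariate, whose values do not overlap between AM73 and AM80 arrays. The arrays numbered 5 hold 1 AM73 array, so a count there cannot be set against these. The causes were not tested. Precision is limited by 3 arrays a group and by dim genes near the floor.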
